A study of Mus musculus with 6 samples.

Results

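The 10 imprinted growth genes described here are H19, Igf2, Igf2r, Dlk1, Meg3, Peg3, Cdkn1c, Grb10, Mest and Plagl1. They were chosen by name, each by an exact match of its symbol, from the 34745 genes of a liver expression table. All 10 were found there. The table holds 6 messenger RNA libraries of C57BL/6 mouse liver, 1 for each combination of sex and tissue. Normal liver came from wild-type mice, and precancerous liver and liver tumor (hepatocellular carcinoma, HCC) came from mice transgenic for Hras12V, an oncogenic form of a RAS signalling gene. The male mice were 9 months old and the female mice 15 months old, none was treated, and sex and age cannot be told apart. The labels name neither the promoter nor the cell type that drives the transgene, nor if several mice were pooled into a library. With 1 library per group no group has a replicate, and the p-values below measure only the spread of these 6 libraries around an additive model of sex and tissue. In the order male normal, male precancerous, male tumor, female normal, female precancerous and female tumor, the values below are FPKM, that is counts per gene length and library total, unless it is called a count.

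Genomic imprinting silences 1 parental copy of a gene through DNA methylation set in the germ line. Many imprinted genes set the growth of the fetus, with paternally expressed genes such as Igf2, Dlk1, Peg3, Mest and Plagl1 and maternally expressed genes such as H19, Igf2r, Meg3 and Cdkn1c. Many are active in fetal liver and are shut down after birth. Igf2 encodes the fetal insulin-like growth factor, and Igf2r a receptor that carries it to the lysosome. These libraries count RNA from both parental copies together, so they say nothing of which copy was read.

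Several of the genes lie in shared clusters, in GRCm38 coordinates from the table. Igf2 (chr7:142650766-142666816, minus strand) and the long noncoding RNA gene H19 (chr7:142575529-142578143, minus strand) are 72.6 kb apart, and Cdkn1c (chr7:143458350-143461050, minus strand) starts 880.2 kb beyond H19. Dlk1 (chr12:109452823-109463336, plus strand) and the noncoding RNA gene Meg3 (chr12:109541001-109571726, plus strand) are 77.7 kb apart. Igf2r lies at chr17:12682406-12769664 on the minus strand, Peg3 at chr7:6703892-6730421 on the minus strand and Grb10 at chr11:11930508-12038683 on the minus strand. Mest lies at chr6:30723547-30748465 on the plus strand, and Plagl1 at chr10:13060504-13131694 on the plus strand. All but H19 and Meg3 code for protein.

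H19, Igf2 and Meg3, all higher in both tumors, also carry microRNA genes on their own strand, and those mature sequences are shown because the host RNA is their source. MicroRNA positions are from RefSeq on GRCm38.p6, and host genes and exons from GENCODE vM21. By these, miR-675 lies in an exon of H19, miR-770 in an exon of Meg3 and miR-483 inside Igf2 outside its exons. Capitals mark the seed, bases 2 to 8, and no seed is shared among them. Mest also carries miR-335 on its own strand outside its exons, which is left out because no Mest comparison passed the test. The libraries measure the host RNA and not these mature microRNAs.
miR-675-5p: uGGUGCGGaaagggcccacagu
miR-675-3p: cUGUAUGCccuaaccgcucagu
miR-483-5p: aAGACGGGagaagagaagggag
miR-483-3p: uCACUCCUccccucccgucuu
miR-770-5p: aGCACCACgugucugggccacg
miR-770-3p: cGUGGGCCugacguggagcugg

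Promoter windows of 300 bases, 250 before and 50 after the start, were in RefSeq for 8 of the 10 genes (all but H19 and Cdkn1c). They were searched on both strands for TGACGTCA (the CRE palindrome), for TGANTCA (an AP-1 type site) and for TATAAA. TGACGTCA was found in 1 Meg3 window, 57 bases before the start, and in the Peg3 window, 178 bases before the start, whereas 1.79% of all 32851 windows hold it. The same Meg3 window holds 2 overlapping matches to TATAAA on opposite strands, the first 29 bases before the start, and 13.6% of all windows hold that motif. TGANTCA is in 7.81% of all windows and in none of those of the 8 genes. A match is a match of letters only. Shown are the windows with a match and, for comparison, the Igf2 window farthest downstream, which has none. Capitals mark the matches.
Meg3 (chr12:109540746-109541045, plus strand): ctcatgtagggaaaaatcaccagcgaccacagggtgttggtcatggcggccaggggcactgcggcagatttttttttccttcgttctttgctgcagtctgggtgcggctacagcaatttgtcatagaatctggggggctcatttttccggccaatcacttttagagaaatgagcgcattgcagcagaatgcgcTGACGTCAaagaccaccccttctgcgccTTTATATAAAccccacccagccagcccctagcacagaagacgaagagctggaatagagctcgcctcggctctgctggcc
Peg3 (chr7:6730370-6730669, minus strand): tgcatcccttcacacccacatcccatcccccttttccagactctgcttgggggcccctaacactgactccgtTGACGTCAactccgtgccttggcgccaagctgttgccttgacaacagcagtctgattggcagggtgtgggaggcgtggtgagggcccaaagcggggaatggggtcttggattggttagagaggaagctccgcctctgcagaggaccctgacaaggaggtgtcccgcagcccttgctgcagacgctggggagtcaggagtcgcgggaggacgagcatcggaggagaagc
Igf2 (chr7:142657447-142657746, minus strand): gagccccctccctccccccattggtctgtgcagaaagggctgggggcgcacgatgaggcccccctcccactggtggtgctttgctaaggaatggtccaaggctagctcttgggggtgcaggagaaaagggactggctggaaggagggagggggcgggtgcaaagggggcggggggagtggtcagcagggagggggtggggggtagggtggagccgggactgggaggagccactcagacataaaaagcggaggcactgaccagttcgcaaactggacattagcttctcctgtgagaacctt

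The 10 genes fell into those that were higher in both tumors and those that were not. H19, Igf2, Igf2r, Dlk1, Meg3, Grb10 and Mest lay higher in both tumors than in both precancerous livers, which is 7 of 10, against 24.5% of the 22081 genes with any count. Of these 7, all but Mest also passed the test, which is an edgeR adjusted p under 0.05 over both sexes, when all genes with any count were fitted (the fit without a filter). A gene that passed is also called below. Peg3 and Cdkn1c stood apart, with their highest values in female precancerous and female normal liver. Mest and Plagl1 stayed under 1 FPKM in every library. None of the 10 had fewer than 10 counts in all 6 libraries, the limit set for a gene too low to read, but Dlk1 had under 10 counts in 5 of them.

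**Figure D1:**
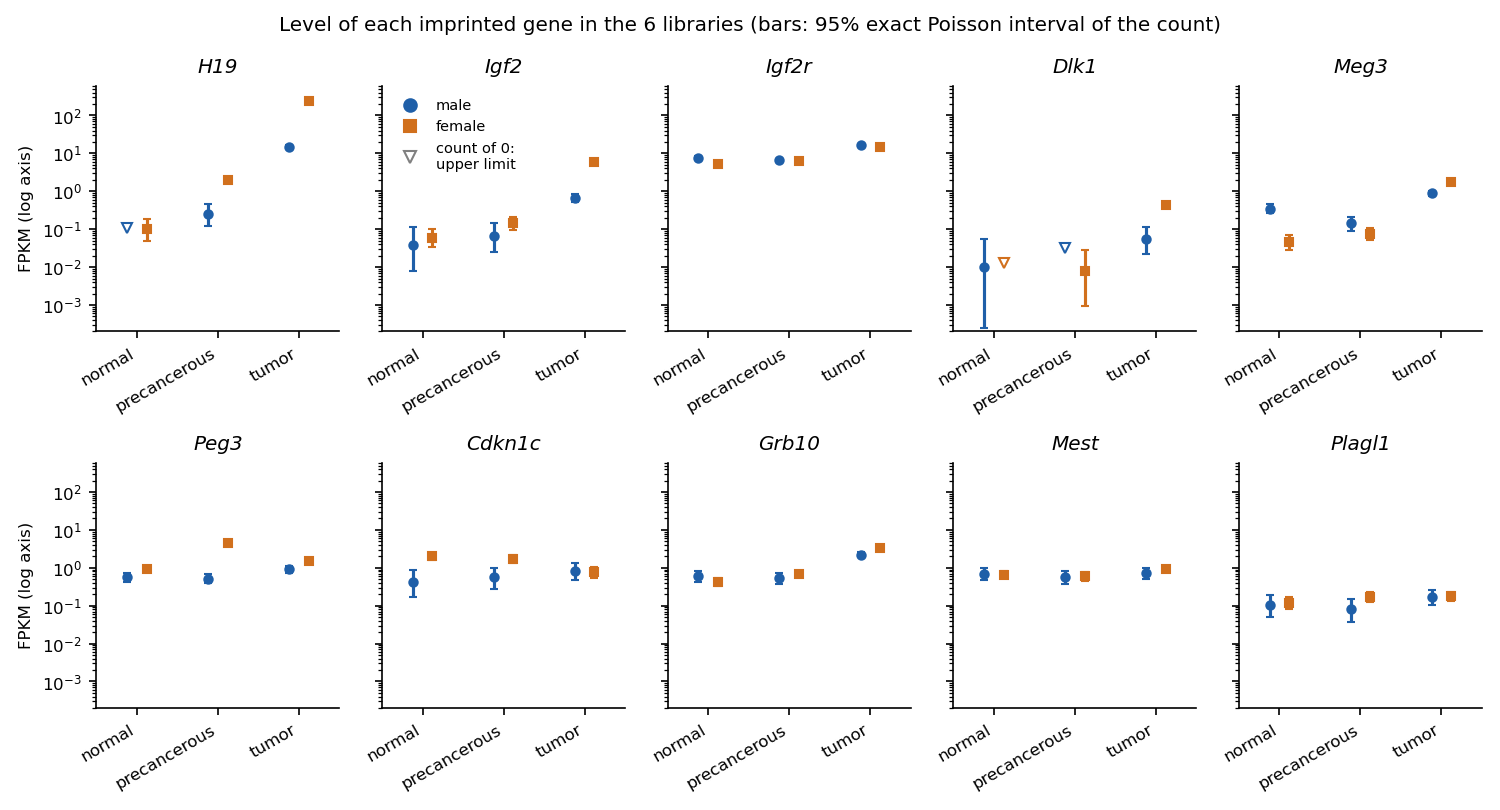
FPKM (log axis, shared by all panels) of each of the 10 genes by tissue, with circles for males and squares for females, bars for the 95% exact Poisson interval of the count, and open triangles for the upper limit of a count of 0. H19 spans the widest range, from a count of 0 in male normal liver to 243.9 FPKM in female tumor, while Igf2r stays between 5.36 and 16.3 FPKM.

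H19 and its neighbour Igf2 showed the widest ranges. H19 had 0, 10 and 631 counts in male normal, precancerous and tumor tissue, and 10, 173 and 25575 counts in the female tissues. In FPKM these were 0, 0.255 and 15.1 in males and 0.0996, 2.02 and 243.9 in females. The order was normal, precancerous, tumor in each sex, and the groups did not overlap between tissues. Male tumor H19 was 59.2 times the male precancerous level (95% exact interval 32.0 to 124.0, counting error only), and the female ratio was 120.7 (103.9 to 140.9). Male normal liver had 0 counts, and male tumor H19 was 171.7 times a floor of 3 counts there (0.088 FPKM). The exact 95% interval of that ratio of tumor to normal liver started at 139.2. In edgeR's fit without a filter, H19 was higher in tumor than in precancerous liver by 6.51 on the log2 scale (SE 0.33, adjusted p = 0.000159). Against normal liver it was higher by 11.05 (SE 0.45, adjusted p = 5.29e-05). H19 reached 1 FPKM only in the 2 tumors and female precancerous liver, and passed the level for testing, 1 FPKM in 2 libraries, only through those. With that filter the values were 6.53 (SE 0.36, adjusted p = 0.00261) and 11.09 (SE 0.48, adjusted p = 0.000987). The first value was 5.80 without the female precancerous and 5.87 without the female tumor library. The second was 12.95 without the female normal and 10.22 without the female tumor library. H19 passed in each of these.

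The step from normal to precancerous liver was also seen for H19 by count, but its call depended on the setting. Female precancerous liver held 20.3 times the H19 of female normal liver (10.8 to 43.1). For male precancerous over male normal liver, on 10 counts against 0, the interval started at 1.95. The fitted difference was 4.56 on the log2 scale (SE 0.48, adjusted p = 0.0554), just outside the threshold of 0.05. Without a filter the adjusted p was 0.00864, and with DESeq2 it was 1.03e-10. Over all alternatives the adjusted p ran from 1.03e-10 to 1.0.

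Igf2 rose with H19 at a much lower level. Its counts were 3, 6 and 66 in males and 14, 28 and 1464 in females, or 0.038, 0.0662 and 0.683 FPKM and 0.0603, 0.141 and 6.04 FPKM. Only the female tumor was above 1 FPKM, so Igf2 was below the level for testing, which asks for 1 FPKM in 2 libraries. Both tumors lay above all other libraries, by 10.3 times (4.5 to 29.1) over precancerous liver in males and 42.7 times (29.4 to 64.5) in females. In the fit without a filter Igf2 was higher in tumor than in precancerous liver by 4.92 on the log2 scale (SE 0.45, adjusted p = 0.000672). It was 3.12 without the female tumor library and 3.42 without the female precancerous one, where the adjusted p was 0.0536. Over all alternatives the adjusted p ran from 6.86e-09 to 0.176. From normal to precancerous liver the fitted difference was 1.20 (SE 0.65, adjusted p = 0.62). GENCODE gives a second coding gene, Gm49394, on the same strand over 62.8% of the exonic bases of Igf2. That gene had no row of its own among those used here, and no source used here says how such shared reads were counted.

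H19 and Igf2 did not keep 1 ratio. On the FPKM scale H19 was 3.85, 22.1, 1.65, 14.3 and 40.4 times Igf2 in male precancerous, male tumor, female normal, female precancerous and female tumor tissue, and was listed at 0 in male normal liver. The lowest and highest of these rest on 10 and 14 counts and on 25575 and 1464 counts. H19 made up 39.9% of the summed FPKM of the 10 genes in male tumor and 89.2% in female tumor, but at most 12.5% elsewhere.

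Igf2r, the receptor that clears the growth factor, had the highest FPKM of the 10 in every normal and precancerous library. Its counts were 451, 437 and 1166 in males and 923, 916 and 2637 in females. The FPKM values were 7.72, 6.51 and 16.3 in males and 5.36, 6.25 and 14.7 in females. Both tumors lay above the 4 other libraries, and the normal and precancerous values overlapped. The tumor to precancerous ratio was 2.5 (2.24 to 2.80) in males and 2.35 (2.18 to 2.54) in females. By edgeR the difference was 1.25 on the log2 scale (SE 0.15, adjusted p = 0.00681), and 1.23 against normal liver (SE 0.15, adjusted p = 0.00476). The adjusted p against precancerous liver was 0.0856 without the male and 0.0625 without the female precancerous library. Between precancerous and normal liver the difference was -0.01 (SE 0.15, adjusted p = 0.98).

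Ligand RNA was closest to receptor RNA in the female tumor. Igf2 stood at 0.00493, 0.0102 and 0.0419 of the Igf2r level in males and at 0.0112, 0.0227 and 0.411 in females, on the FPKM scale. The gene lengths behind the deposited FPKM exceed the annotated exonic length of GENCODE by 1.05 times for Igf2r and by 2.30 times for Igf2, and over the 10 genes by 1.05 to 2.97 times. With exonic lengths the Igf2 to Igf2r ratio was 0.0921 in male tumor and 0.903 in female tumor. The H19 to Igf2 ratio in female tumor was 40.6 that way, since both of those lengths exceed the exons by a like factor. With exonic lengths H19 rather than Igf2r was the highest of the 10 in male tumor, so the order of levels there depends on the length used. Ratios of 1 gene between libraries do not depend on it. Airn, the antisense RNA gene of the Igf2r locus, had 0.245, 0.182 and 1.11 FPKM in males and 0.214, 0.293 and 1.0 in females. It shares no exonic base with Igf2r, and it reached 1 FPKM only in the 2 tumors. In the fit without a filter it rose between precancerous liver and tumor by 2.0 on the log2 scale (SE 0.34, adjusted p = 0.00840).

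Dlk1, a transmembrane regulator of cell differentiation, and Meg3 were both low and both highest in the female tumor. Dlk1 had 1, 0 and 7 counts in males and 0, 2 and 133 counts in females, which is at most 0.0567 FPKM outside the female tumor and 0.430 FPKM in it. Only the female tumor is well counted, and it was at least 42.5-fold higher than the female normal library, which had 0 counts. The ratio of female tumor to female precancerous liver was 54.3 (14.7 to 452.9). For male tumor over male precancerous liver, on 7 counts against 0, the interval started at 1.35. Without a filter the fitted difference of tumor from precancerous liver was 5.60 on the log2 scale (SE 0.90, adjusted p = 0.00602). It was 2.96 (adjusted p = 0.393) without the female tumor library, 6.63 (adjusted p = 0.351) without the female precancerous one and 5.48 (adjusted p = 0.0692) without the male precancerous one. With so many counts of 0, the size of this fitted value depends on the small count that edgeR adds.

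Meg3 had 53, 25 and 165 counts in males and 21, 29 and 807 counts in females. In FPKM it stood at 0.347, 0.143 and 0.883 in males and at 0.0468, 0.0758 and 1.72 in females. The tumors were the 2 highest libraries, and male normal liver came next, at 7.43 times the female normal level (4.41 to 13). The tumor to precancerous ratio was 6.19 (4.05 to 9.84) in males and 22.7 (15.7 to 34.1) in females. Male precancerous liver was below male normal liver by a ratio of 0.41 (0.244 to 0.672), and the female ratio was 1.62 (0.893 to 2.99). Without a filter Meg3 was higher in tumor than in precancerous liver by 3.70 on the log2 scale (SE 0.76, adjusted p = 0.0164), but the adjusted p was 0.146 without the male and 0.248 without the female precancerous library. The size was 1.99 without the female tumor and 4.99 without the male tumor library, both called. Gm26906, on the opposite strand, covers 6.79% of the Meg3 exons and had 7, 2 and 15 counts in males and 0, 0 and 1 in females, so the male libraries have reads on it where the female ones have almost none. Its part in the male Meg3 values was not tested, and no source used here gives the strand setting behind the counts.

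Rian and Mirg, noncoding RNA genes next in line beyond Meg3 (Rian starts 32.2 kb after it), were low with the same 2 libraries on top. Rian had 0.219, 0.0824 and 0.993 FPKM in males and 0.0297, 0.0348 and 1.04 in females. Mirg had 3, 1 and 14 counts in males and 0, 6 and 41 in females. Of the paternally expressed neighbours of Dlk1, Rtl1 was listed at 0 in all 6 libraries and Dio3 in 3 of them.

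Grb10, an adaptor that binds the insulin and IGF1 receptors and dampens their signal, passed the level for testing only through the tumors, so it had to differ once it passed. Its counts were 37, 37 and 166 in males and 75, 105 and 624 in females. The FPKM values were 0.611, 0.532 and 2.24 in males and 0.421, 0.691 and 3.35 in females. Both tumors were above every other library, and the other 4 overlapped. The tumor to precancerous ratio was 4.21 (2.93 to 6.18) in males and 4.85 (3.94 to 6.02) in females. Without a filter the fitted difference was 2.11 on the log2 scale (SE 0.26, adjusted p = 0.00212). With the filter it was 2.16 (SE 0.28, adjusted p = 0.00785), and its adjusted p was 0.0749 without the male and 0.0814 without the female precancerous library. The female precancerous library was 1.64 times the female normal one (1.21 to 2.24), and the male ratio was 0.87 (0.537 to 1.41). Over both sexes that difference was 0.33 (SE 0.31, adjusted p = 0.664).

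Cdkn1c, which encodes the cyclin-dependent kinase inhibitor p57, went in opposite directions in the sexes. It had 7, 11 and 17 counts in males and 100, 71 and 40 counts in females, or 0.415, 0.567 and 0.822 FPKM and 2.01, 1.68 and 0.771 FPKM. The 3 male values have overlapping intervals, and the female values were lowest in the tumor. Female tumor was at 0.46 of female precancerous liver (0.304 to 0.687), while the male ratio was 1.45 (0.641 to 3.42). Female normal liver was at 4.85 times the male normal level (2.27 to 12.4), and the tumors of the sexes were at a ratio of 0.938 (0.52 to 1.76). No tissue comparison passed in edgeR's fit: tumor against precancerous liver gave -0.52 (SE 0.56, adjusted p = 0.538) and tumor against normal liver -0.65 (SE 0.55, adjusted p = 0.412). Without the male tumor library the second was -1.36, and without the female tumor library it was 0.60. Cdkn1c passed the level for testing only through female normal and female precancerous liver, so nothing is read from its fits with the filter. Without a filter edgeR gave -0.54 (SE 0.51, adjusted p = 0.596) against precancerous and -0.68 (SE 0.50, adjusted p = 0.445) against normal liver. Gm44732, an antisense gene, covers 30.7% of the Cdkn1c exons.

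Peg3, which encodes a zinc finger protein, was highest in female precancerous liver. Its counts were 54, 57 and 107 in males and 269, 1100 and 456 in females. In FPKM it stood at 0.564, 0.518 and 0.912 in males and at 0.954, 4.58 and 1.55 in females. The female precancerous value was 4.8 times the female normal one (4.20 to 5.50) and 8.84 times the male precancerous one (6.77 to 11.7). The male precancerous to normal ratio was 0.918 (0.622 to 1.36). From precancerous liver to tumor the ratio was 0.338 (0.303 to 0.378) in females and 1.76 (1.27 to 2.47) in males. Over both sexes neither precancerous against normal liver (1.44, SE 0.61, adjusted p = 0.343) nor tumor against precancerous liver (-0.73, SE 0.58, adjusted p = 0.405) passed. Peg3 passed the level for testing only through female precancerous liver and female tumor, so nothing is read from these fits with the filter. Without a filter edgeR gave 1.43 (SE 0.51, adjusted p = 0.35) and -0.77 (SE 0.49, adjusted p = 0.395). With the filter the tumor against precancerous value was -1.60 without the male precancerous library and 0.76 without the female one. How the sexes differ in this step was not tested, since the 6 libraries leave no residual for it.

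Marker sums of macrophages and Kupffer cells, of stellate and mesenchymal cells and of endothelial cells were also highest in female precancerous liver. So was the low sum of mesothelial markers. The 7 genes of macrophages and Kupffer cells summed to 132.7, 221.7 and 60.2 FPKM in males and to 160.7, 267.0 and 95 FPKM in females. Stellate and mesenchymal markers (14 genes) summed to 91.2, 102.2 and 95.1 FPKM in males and to 173.8, 178.8 and 141.5 FPKM in females. Dcn alone made up most of the normal and precancerous sums, at 63.1 and 74.4 FPKM in males and 132.4 and 140.5 FPKM in females. The median difference of these 14 markers between precancerous and normal liver was instead -0.23 on the log2 scale without a filter, against -0.02 over all fitted genes. Endothelial markers (8 genes) summed to 50.7, 60.6 and 42.1 FPKM in males and to 61.5, 67.7 and 44.2 FPKM in females. In males these sums were also highest in precancerous liver, and the male Peg3 ratio of precancerous to normal liver was 0.918 (0.622 to 1.36). The part of these cells in the Peg3 values was not tested.

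Mest, a member of the alpha/beta hydrolase fold family, and Plagl1, a zinc finger transcription factor, were low in every library. Mest had 28 to 38 counts in males and 63 to 121 in females, and lay between 0.574 and 0.927 FPKM. Its female tumor to precancerous ratio was 1.57 (1.15 to 2.16) and the male ratio 1.27 (0.761 to 2.15). Without a filter that difference was 0.45 on the log2 scale (SE 0.24, adjusted p = 0.297). Copg2 covers 23.1% of the Mest exons on the opposite strand and was better counted, at 224 to 524 counts. Plagl1 had 9 to 20 counts in males and 34 to 54 in females, between 0.0808 and 0.181 FPKM. Its tumor to precancerous ratio was 2.08 (0.907 to 5.20) in males and 1.05 (0.688 to 1.61) in females, and the fitted difference was 0.35 (SE 0.35, adjusted p = 0.641).

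**Figure D2:**
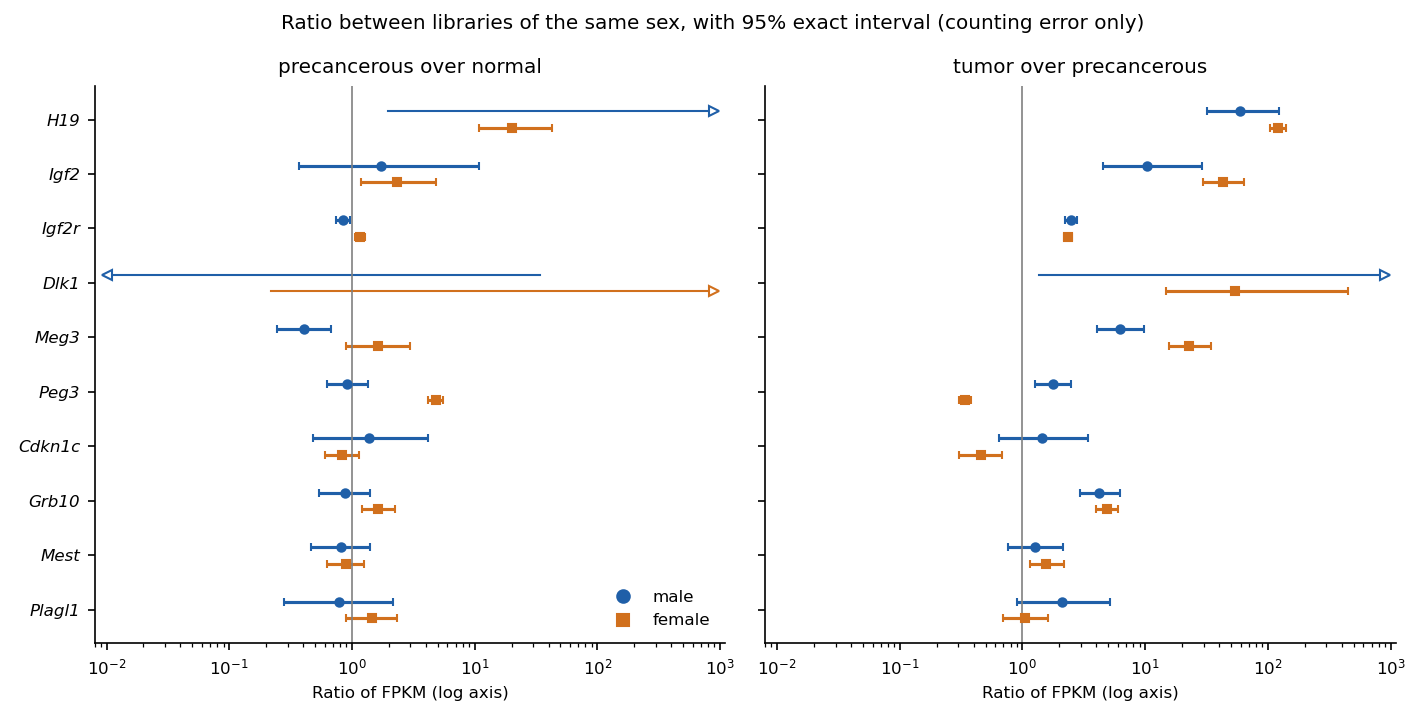
Ratio of FPKM between libraries of the same sex (log axis) for precancerous over normal liver and tumor over precancerous liver, with 95% exact intervals for counting error, and arrows where a count of 0 leaves 1 side open. The intervals of H19, Igf2, Igf2r, Dlk1, Meg3 and Grb10 lie above 1 in both sexes on the tumor side, and those of Peg3 lie on opposite sides, at 1.76 in males and 0.338 in females.

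Tumor was compared with precancerous liver over both sexes, with sex as a term of the model, to see which of the 10 changed with the tumor. All 10 were read in the fit without a filter. There H19, Igf2, Igf2r, Dlk1, Meg3 and Grb10 rose and none fell, which is 6 of 10 against 15.7% of the 22081 genes fitted, 8.33% higher and 7.36% lower. With the filter H19, Igf2r and Grb10 were called among the 5 genes tested, where 25.9% of 11435 genes were called. Grb10 was tested there only through the tumors, and H19 only through them and female precancerous liver. Peg3 was tested only through female precancerous liver and female tumor, and Cdkn1c only through female normal and female precancerous liver. So nothing is read from that count against the 25.9%. Of H19, Igf2r and Grb10, H19 alone kept its call without the female precancerous library and without the male one. With no sex term none of the 5 was called, with adjusted p = 0.16 for H19, at a size of 6.80 on the log2 scale; 2173 genes then had an unadjusted p under 0.05 and 113 were called, while DESeq2 and limma-trend each called 3 of the 5. In raw order, all 10 were higher in tumor than in precancerous liver in males and 8 in females, the exceptions being Peg3 and Cdkn1c. The male intervals of Cdkn1c (0.641 to 3.42), Mest (0.761 to 2.15) and Plagl1 (0.907 to 5.20) include a ratio of 1. The share of all genes with that order within a sex is not given here, so nothing is read from these counts.

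Precancerous liver was compared with normal liver to see which of the 10 changed before the tumor. None of the 5 genes tested passed in edgeR's fit, where 0.254% of genes were called and 1807 had an unadjusted p under 0.05, H19 among them. DESeq2 called H19 and limma-trend called none. Without a filter H19 was the 1 gene of 10 called, higher, against 0.829% of all genes (0.439% higher and 0.389% lower). Both precancerous livers lay above both normal livers for H19 and Igf2, that is for 2 of 10, against 11.9% of genes with any count. In females 8 of the 10 were higher in precancerous than in normal liver and in males 3. Nothing is read from these last 2 counts either, since the share of all genes with that order within a sex is not given.

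Tumor against normal liver, which shares its tumor libraries with the first comparison and its normal libraries with the second, gave the same 6 genes without a filter, all higher, against 20.2% of genes called (10.4% higher and 9.76% lower). Their sizes were 11.05 for H19, 6.54 for Dlk1, 6.12 for Igf2, 3.13 for Meg3, 2.43 for Grb10 and 1.17 for Igf2r on the log2 scale. The adjusted p was largest for Meg3, at 0.0243, and for Dlk1 it was 0.00355. Dlk1 lost its call without the female normal library (2.34, adjusted p = 0.272) and without the female tumor one (3.85, adjusted p = 0.247). It was 9.56 without the male normal and 7.12 without the male tumor library. Meg3 lost its call without the male precancerous (adjusted p = 0.0696), female precancerous (adjusted p = 0.0718) and female normal library (1.59, adjusted p = 0.0556). Its size was 1.58 without the female tumor, 4.89 without the male normal and 4.56 without the male tumor library. Igf2 was 4.24 without the female normal and 4.22 without the female tumor library and was called in both. With the filter H19, Igf2r and Grb10 were called, where 33.4% of genes were, and again nothing is read from that count. Both tumors lay above both normal livers for 8 of the 10, against 24.4% of genes with any count, the exceptions being Cdkn1c and Peg3.

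**Figure D3:**
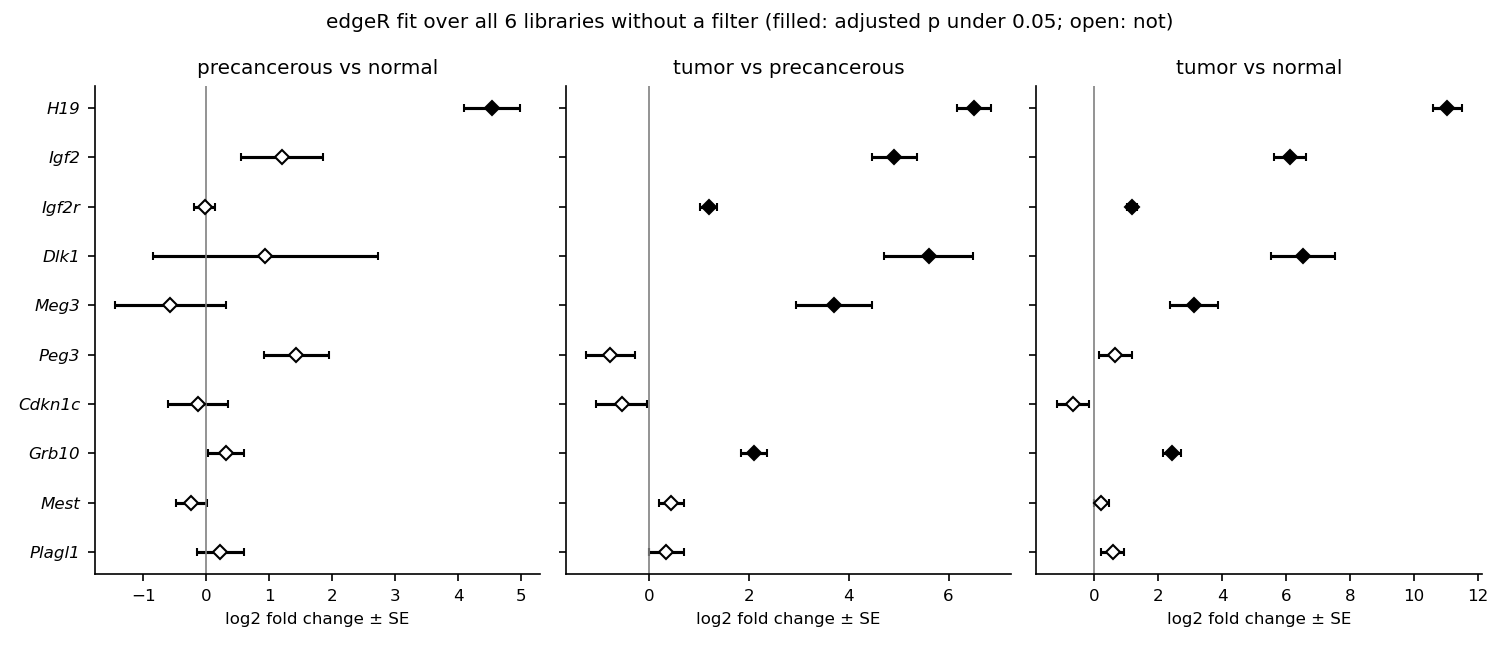
Fitted log2 fold change with its SE for each of the 10 genes in 3 tissue comparisons, from edgeR without a filter over 6 libraries, filled where the adjusted p was under 0.05. The same 6 genes are filled in both tumor comparisons, from 1.17 for Igf2r to 11.05 for H19 against normal liver, and H19 alone is filled for precancerous against normal liver.

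Males were compared with females across tissues, a comparison that is also one of 9 against 15 months of age. It is one of depth too, since male libraries held at most 7347064 counts and female ones at least 15047022. Low male counts are thus less well read than female ones. With the filter H19 was lower in males by 3.78 on the log2 scale (SE 0.32, adjusted p = 0.00317). It was the 1 gene called of 5, where 37.3% of genes were called. Peg3 and Cdkn1c were tested there only through female libraries, and H19 only through male tumor, female precancerous liver and female tumor. So nothing is read from that count against the 37.3%. Without a filter 4 of the 10 were called, all lower in males, against 21.3% of genes (10.8% higher and 10.6% lower): H19 (-3.83), Igf2 (-2.82, adjusted p = 0.00412), Dlk1 (-2.73, adjusted p = 0.0417) and Peg3 (-1.66, adjusted p = 0.0308). For Igf2 and Dlk1 the call was lost without either tumor library, and for Dlk1 also without either precancerous one (adjusted p = 0.169 and 0.168). Without the male tumor library the Igf2 difference was -1.02 (adjusted p = 0.117) and that of Dlk1 0.18 (adjusted p = 1.0), and without the female tumor library they were -1.01 (adjusted p = 0.166) and 0.17 (adjusted p = 1.0). Female tumor was 16.2 times male tumor for H19 (14.9 to 17.5), 8.84 times for Igf2 (6.91 to 11.5), 7.57 times for Dlk1 (3.57 to 19.2) and 1.95 times for Meg3 (1.65 to 2.32). For Igf2r the ratio was 0.901 (0.841 to 0.966).

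Other imprinted genes were read from lists of 28 paternally and 28 maternally expressed genes in the fit without a filter, where 15.7% of genes were called between precancerous liver and tumor. Of 22 paternally expressed genes with any count 1 rose, Airn, and 1 fell, Slc38a4, an amino acid transporter, by 1.41 on the log2 scale (SE 0.18, adjusted p = 0.00235). Slc38a4 was the most abundant of that list, at 197.4, 209.9 and 82.6 FPKM in males and 179.6, 166.6 and 66.7 FPKM in females. The list's median difference was -0.067, and that of all fitted genes 0.046. Of 26 maternally expressed genes 3 rose and none fell: Rian by 4.24 (SE 0.60, adjusted p = 0.00382), Atp10a, a phospholipid transporting ATPase, by 1.74 (SE 0.43, adjusted p = 0.0338), and H13, a signal peptide peptidase, by 0.68 (SE 0.18, adjusted p = 0.0432). That list's median was 0.072. Phlda2, a pleckstrin homology domain gene known for limiting placental growth, reached 1 FPKM only in the 2 tumors. It had 2, 4 and 14 counts in males and 0, 2 and 37 in females, and was called against normal liver, at 4.20 (SE 0.98, adjusted p = 0.0217). Of the paternally expressed genes 16 of 28 had fewer than 10 counts in every library. No gene of either list was called between precancerous and normal liver. With the filter 25.9% of genes were called (13.8% higher and 12.1% lower). There 1 rose and 1 fell of 8 paternally expressed genes tested, and 2 rose of 15 maternally expressed ones (H13 and Cd81, a tetraspanin). Airn and Phlda2 were tested there only through the tumors, so nothing is read from these counts.

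**Figure D4:**
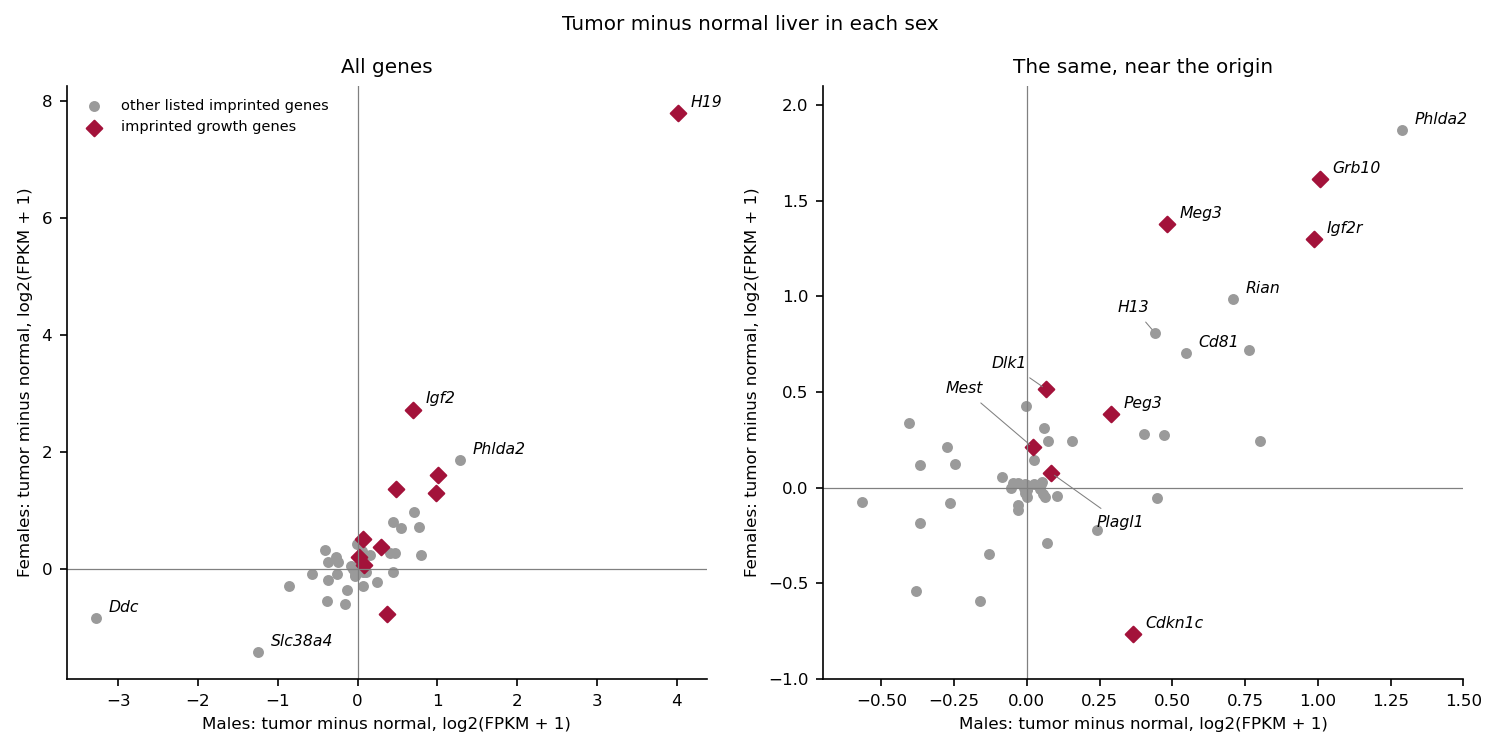
Tumor minus normal liver as the difference of log2(FPKM + 1) in males (horizontal) and females (vertical) for the 10 genes (diamonds) and 56 other listed imprinted genes (circles), with an enlarged view of the centre on the right. H19 lies far from the rest at 4.01 in males and 7.80 in females, Cdkn1c lies on opposite sides of 0 at 0.37 and -0.77, and most other imprinted genes lie near 0; Ddc and Slc38a4 are the lowest of those named.

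Genes of the IGF pathway around Igf2 and Igf2r were called in both directions. Of 18 listed genes, all with some count, 4 rose and 3 fell between precancerous liver and tumor without a filter, against 8.33% higher and 7.36% lower over all genes. The list median was 0.32. The binding protein genes Igfbp1 and Igfbp3 rose by 3.98 and 2.72 on the log2 scale. Igfbp6, another of them, rose by 4.11 (SE 0.84, adjusted p = 0.0163) on few counts, 1, 2 and 18 in males and 2, 0 and 29 in females, and reached 1 FPKM only in the tumors. Pappa, a protease of IGF binding proteins, also rose (3.69, SE 0.99, adjusted p = 0.0453), with 92 counts in male tumor and at most 7 in any other library. Igf1, the postnatal growth factor made by liver, fell by 3.26 (SE 0.25, adjusted p = 0.000382), Igfals, which stabilises it in serum, fell by 3.91 (SE 0.29, adjusted p = 0.000348), and Igfbp5 fell by 2.30. Igf1 stood at 26.3, 34.2 and 4.90 FPKM in males and 29.1, 36.5 and 3.01 FPKM in females, so in female tumor the Igf2 value of 6.04 FPKM was above that of Igf1 on the deposited lengths. Igf1r, the receptor for both ligands, stayed at or under 0.653 FPKM in every library. None of the list was called between precancerous and normal liver. Against normal liver 6 rose and 2 fell, where 10.4% and 9.76% of all genes did, with Insr, the insulin receptor gene, among those that rose (0.69, SE 0.17, adjusted p = 0.0276). With the filter 3 rose and 3 fell of 12 tested against precancerous liver (25.9% of genes called). Against normal liver 4 rose and 2 fell (33.4% called, 17.3% higher and 16.1% lower). Igfbp6 was tested there only through the tumors, so nothing is read from these counts.

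Of fetal liver genes and their postnatal repressors, 8 of 10 had any count, and 4 rose and 2 fell between precancerous liver and tumor without a filter, against 15.7% of all genes called. The list median was 2.04. Afp, the fetal serum protein, rose by 4.81 on the log2 scale (SE 0.82, adjusted p = 0.00784), Gpc3, a cell surface proteoglycan, by 3.17 (SE 0.74, adjusted p = 0.0265), Cd24a by 2.29 and Sox9 by 1.79. Zbtb20, a repressor of Afp, fell by 3.81 (SE 0.28, adjusted p = 0.000342). Male Zbtb20 was at 5.97 FPKM in precancerous liver and 0.333 FPKM in tumor, and female Zbtb20 at 3.25 and 0.308 FPKM. Zhx2, a repressor of both Afp and H19 in postnatal liver, fell by 0.59 (SE 0.16, adjusted p = 0.0466), but with the filter it did not pass (adjusted p = 0.0586), and neither did Gpc3 (adjusted p = 0.0524).

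Gpc3 was already higher in both precancerous livers. It stood at 0.107, 2.71 and 99.5 FPKM in males and at 0.109, 36.7 and 118.1 FPKM in females, so the tissues did not overlap. Against normal liver it differed in precancerous liver by 7.36 (SE 1.10, adjusted p = 0.0354), the 1 call of that list, but with the filter, which it passed only through precancerous liver and tumor, the adjusted p was 0.118. Afp stood at 0.547, 1.16 and 93.1 FPKM in males and at 0.0663, 7.19 and 125.2 FPKM in females, and its difference of 4.08 in that step did not pass (SE 1.04, adjusted p = 0.174; 0.236 with the filter). Against normal liver both rose in tumor, Gpc3 by 10.54 and Afp by 8.89.

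Of 15 genes of imprint maintenance and DNA methylation with any count, 3 rose and none fell between precancerous liver and tumor without a filter, against 8.33% of all genes higher. Zfp57 and Uhrf1 reached 1 FPKM only in the 2 tumors. Zfp57, which protects methylation at imprinted control regions, rose by 3.39 (SE 0.31, adjusted p = 0.000650), from 7 to 158 counts in males and from 34 to 325 in females. Uhrf1, a partner of the maintenance methyltransferase, rose by 2.52, from 8 to 88 counts in males and from 23 to 111 in females. Dnmt1, the maintenance methyltransferase itself, rose by 0.66. The list's median was 0.12, and none of it was called between precancerous and normal liver. With the filter 3 of 7 fetal liver genes tested rose and 1 fell, and 3 of 9 methylation genes rose, where 25.9% of genes were called. Zfp57 and Uhrf1 were tested there only through the tumors, so nothing is read from the methylation count.

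Markers of other cell types were read the same way, and in bulk tissue fewer cells of a type and less RNA per cell cannot be told apart. Cholangiocyte markers (7 genes) summed to 13.9, 11.1 and 123.2 FPKM in males and to 15.5, 17.5 and 141.8 FPKM in females. Of these 7, 2 rose between precancerous liver and tumor without a filter and none fell, against 8.33% of all genes higher and 7.36% lower. Of 14 stellate and mesenchymal markers 5 rose and 4 fell, of 8 endothelial markers 3 fell, and of 7 macrophage markers 6 fell. Of 6 lymphocyte markers 2 rose, and of 6 hepatocyte markers 2 fell. Hepatocyte markers were abundant in every library, summing to between 32530 and 65291 FPKM. Adipocyte markers summed to at most 0.466 FPKM and mesothelial markers to at most 0.583 FPKM. The part of these cells in the values of the 10 genes was not tested.

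For each of the 5 genes that passed the level for testing, the 3 genes of most similar profile were found by Pearson's r of log2(FPKM + 1) over the 6 libraries among 6270 candidates above 5 FPKM in some library. These r values rest on 6 points that share sex and tissue and describe the profile only. For H19 they were Arl8a (0.998), Zfp750 (0.997) and Epha2 (0.995), each highest in female tumor. For Igf2r they were Dusp16 (0.999), Tgfa (0.999), the EGF receptor ligand TGF-alpha, and Pgm3 (0.998). For Grb10 they were Bin1 (0.999), Crkl (0.998) and Lrrfip1 (0.997). Peg3 was less closely matched, by Rnf166 (0.944), Ifi204 (0.924) and Ly86 (0.916). Cdkn1c resembled Slc22a27 (0.994), Sult2a1 (0.983) and Cyp2a22 (0.983), which were far higher in female normal liver than in any male library, with Sult2a1 at 143.4 FPKM against at most 1.33 in males. Sult2a1 and Cyp2a22 belong to multigene families whose members can share reads.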

How the data were processed

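The data are 6 messenger RNA libraries of mouse liver, 1 per group, made with mirVana RNA isolation and a stranded mRNA library kit, per the labels. For each gene the deposited table has a whole-number count, not normalized, and an FPKM value made by the authors from it. The deposited FPKM equals the count over 1 gene length and the library total. The submitters' processing notes name Cuffdiff, TopHat2 2.0.9, mm10 and GRCm38, with no roles given. Library totals ran from 5996585 to 7347064 counts in males and from 15047022 to 18434508 in females, so depth also differed with sex. A floor of 3 counts, used for a count of 0, was 0.163 to 0.500 counts scaled to 1000000 library counts.

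The level for testing was an FPKM of 1 or more in 2 or more libraries (11435 genes). These went into the quasi-likelihood test of edgeR 4.0.16 under R 4.3.3, with TMM scaling and sex plus tissue as additive terms, which leaves 2 residual degrees of freedom. Benjamini-Hochberg adjustment ran over all genes tested, two-sided, with calls under 0.05. Since 5 of the 10 genes miss that level, a fit without a filter over 22081 genes is given for all 10 and, a choice made after the data were seen, for the lists. Alternatives were RLE scaling, DESeq2 1.42.0, limma-trend 3.58.1 on log2(FPKM + 1) or log2(FPKM + 0.1), no sex term and leaving out each library. The test was tried on simulated counts first. Ratios between 2 libraries have exact conditional 95% intervals (Clopper-Pearson) and counts exact Poisson ones, all for counting error only. Exonic overlaps came from GENCODE vM21, and sequences from RefSeq on GRCm38.p6. The 10 genes and all lists were chosen with earlier results of these data known. Named genes were the 10, up to 3 called list members per direction with the largest change, and the 3 of most similar profile. Outside that rule, Zhx2, Atp10a, Pappa, Igf1r, Rian, Mirg, Rtl1, Dio3, Ddc and overlapping genes were named after their values were seen.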

Additional observations from a re-analysis of the deposited data

Results flagged for a closer look

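In 10 cases a gene moved one way in the male libraries and the other way in the female libraries, given here as differences of log2(FPKM + 1). With 1 library per group the difference between the sexes was not tested in any of them, and age differs with sex. From normal to precancerous liver, Peg3 differed by -0.043 in males and 1.51 in females, Igf2r by -0.22 and 0.19, Grb10 by -0.073 and 0.25, and Meg3 by -0.24 and 0.039. In the same step Cdkn1c differed by 0.15 in males and -0.17 in females, Plagl1 by -0.030 and 0.067, and Dlk1 by -0.014 and 0.011. From precancerous liver to tumor Peg3 differed by 0.33 in males and -1.13 in females, and Cdkn1c by 0.22 and -0.60. From normal liver to tumor Cdkn1c differed by 0.37 in males and -0.77 in females. The count intervals exclude a ratio of 1 in both sexes for Igf2r from normal to precancerous liver, at 0.843 (0.737 to 0.964) in males and 1.16 (1.06 to 1.28) in females, and for Peg3 from precancerous liver to tumor. For Dlk1 the difference rests on 3 counts in all.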

How the results depend on the processing

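No paired analysis was possible because the labels carry no replicate numbers and each group holds 1 library. The sex term lets the model compare the tissues over both sexes with sex allowed for, and its removal is given below. The 10 genes' fold changes under all alternatives kept their direction and side of the threshold 363 times, lost the call 45 times, gained it 16 times and turned 26 times. Without a filter the genes called of the 10 became 6 for tumor against precancerous, 1 for precancerous against normal, 6 for tumor against normal and 4 for male against female, and 183 genes in all were called for precancerous against normal. DESeq2 gave 368 genes and 1 of the 10 for precancerous against normal, and 2 of the 10 for male against female. Limma-trend gave 3 genes (pseudocount 1) or 10 (pseudocount 0.1) for precancerous against normal, and at pseudocount 1 none (0) of the 10 for male against female, where 5610 genes had an unadjusted p under 0.05. With no sex term, tumor against precancerous had 113 genes and 0 of the 10, precancerous against normal 0 genes (501 with an unadjusted p under 0.05) and tumor against normal 690 genes. The cause was not tested.

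Leaving out each library in turn gave 458 to 2933 genes and 1 to 3 of the 10 for tumor against precancerous, 0 to 219 and 0 to 1 for precancerous against normal, 1923 to 3241 and 3 to 4 for tumor against normal, and 762 to 3732 and 1 to 3 for male against female. An arm left with 1 library is assumed to vary like the others. Where a log2 value turned when a library was left out, its range was, for tumor against precancerous, -1.60 to 0.76 for Peg3 and -1.24 to 0.74 for Cdkn1c. For precancerous against normal it was -0.76 to 2.72 for Igf2, -0.22 to 0.20 for Igf2r, -3.34 to 3.89 for Dlk1 (-0.16 without female precancerous), -2.07 to 1.27 for Meg3, -0.090 to 2.27 for Peg3, -0.50 to 1.04 for Cdkn1c, -0.28 to 0.76 for Grb10 and -0.36 to 0.55 for Plagl1. For tumor against normal it was -1.36 to 0.60 for Cdkn1c and -0.040 to 0.40 for Mest, and for male against female -3.08 to 0.18 for Dlk1 (0.17 without female tumor) and -0.57 to 1.88 for Meg3 (-0.55 without male normal). Limma-trend turned Dlk1 (-0.0014 and -0.013, pseudocounts 1 and 0.1) and Cdkn1c (0.062, pseudocount 0.1) for precancerous against normal, and Meg3 (-0.027, pseudocount 1) for male against female. Depth limits Igf2 outside the tumors, Dlk1 outside the female tumor, Plagl1 in all libraries and the male Cdkn1c values, which rest on few counts. In male tumor Dlk1 had 7 counts, Cdkn1c 17 and Plagl1 20.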
